A study of Mus musculus with 48 samples.

Results

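The genes described are 6 MHC class II pathway genes and their master regulator: the chain genes H2-Aa, H2-Ab1 and H2-Eb1, the invariant chain Cd74, the peptide loading genes H2-DMa and H2-Ob, and the transactivator Ciita. They were chosen by symbol, and all 7 were found among the 547 genes of a NanoString nCounter mouse immunology panel, an assay that counts colour-barcoded probes hybridised to RNA without amplification. Each sample was total RNA from the epididymal white fat of 1 mouse of the strain C3H/HeOuJ. The mice ate 1 of 6 diets for 6 months: standard chow (8 mice), sucrose/palmitate (8), starch/palmitate (7), sucrose/oleate (9), starch/oleate (9) or a commercial Western diet (7). Carbohydrate and fat each supplied 42% of calories in the fat-rich diets, and the 4 custom diets crossed sucrose or starch with palmitate or oleate. All mice share 1 inbred strain and no gene was altered. The labels used here give neither age nor housing, and p-values measure only the spread between these samples.

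MHC class II molecules present peptides from engulfed material to CD4 T cells. The alpha and beta chains assemble with the invariant chain in the endoplasmic reticulum, and in endosomes H2-DM exchanges the remaining invariant chain fragment for other peptides, while H2-O restrains H2-DM, mainly in B cells. Transcription of the chain, invariant chain and H2-DM genes depends on CIITA, which binds no DNA itself but docks on factors assembled at the conserved X and Y boxes of class II promoters, and which interferon gamma induces. In fat, dendritic cells, macrophages, B cells and, under inflammation, adipocytes are known to carry class II. C3H mice have the H-2k haplotype, which makes an I-E molecule, whereas C57BL/6 mice, on whose genome the RefSeq names rest, lack a working E alpha gene. The probe for that gene is therefore listed as H2-Ea-ps, a pseudogene.

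Promoter sequence is shown for the conserved boxes through which CIITA acts. RefSeq windows of 250 bases before to 50 bases after the start were held for 4 of the 7 genes, in 5 windows (GRCm38.p6), and H2-Ab1, Cd74 and Ciita had none. H2-Aa, H2-Eb1 and H2-Ob each held GCAAC, part of the X1 box, followed 29 to 32 bases downstream on the gene's strand by GATTGG, the core of the Y box. The letters searched were chosen after these sequences had been read, and a match is not shown to be a bound site. The pair in this order, 20 to 40 bases apart, occurred in 65 of 32841 promoter windows (0.198%). GCAAC occurred on either strand in 35.2% of all windows and GATTGG in 16.1%, whether or not the other was there. Neither H2-DMa window held the pair: 1 held only GCAAC and the other only GATTGG. The stretches are given 5′ to 3′ on the gene's strand, with both motifs in capitals. They lie on chromosome 17 at chr17:34287852-34287919 (H2-Aa, minus strand), chr17:34305761-34305827 (H2-Eb1, plus strand) and chr17:34238803-34238867 (H2-Ob, plus strand), and they are the C57BL/6J reference, not C3H.
H2-Aa: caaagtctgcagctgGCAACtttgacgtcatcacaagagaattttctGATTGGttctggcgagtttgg
H2-Eb1: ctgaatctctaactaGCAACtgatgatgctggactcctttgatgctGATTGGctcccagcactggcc
H2-Ob: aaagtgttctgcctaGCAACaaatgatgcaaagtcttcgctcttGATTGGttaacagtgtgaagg
GCAAC began 81 bases before the start in H2-Aa, 91 in H2-Eb1 and 87 in H2-Ob. GATTGG began 49, 60 and 58 bases before it.

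Gene counts summed to between 396391 and 888687 per sample (median 635028), and levels are given as counts scaled to the geometric mean of the panel's 14 reference genes. The negative control probes averaged 7.51 counts, far below 6 of the 7 genes, whereas H2-Ob was counted at only 16.9 to 69.1 and is the least precise. Levels are not compared between genes, since probes differ in yield. How well the H2 probes match the C3H alleles of these polymorphic genes is not given, so their counts and the ratios between them are read only across samples. The adipocyte genes on the panel (Cfd, Pparg and Cd36) summed to at least 24238 scaled counts in every sample. In 7 samples, sucrose/palmitate 2, starch/palmitate 1 and 3, starch/oleate 2 and 6 and Western diet 2 and 6, the mean of 6 epithelium markers exceeded the median sample by over 3 median absolute deviations. Positive control probes are spiked in at known amounts, and the ratio of A to B among them also divided the samples: chow (3.17 to 3.39), the Western diet (3.27 to 3.43), sucrose/palmitate 1 to 4 and starch/oleate 1, 2, 4 and 5 lay at or above the lowest chow value, and all starch/palmitate (2.92 to 3.16) and sucrose/oleate (2.92 to 3.07) samples and the rest of the other 2 diets lay below it. What sets this ratio is not in the labels. For starch/palmitate and sucrose/oleate against chow, the mice of those groups alone cannot tell the ratio class and the diet apart.

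Over all 6 diets at once, none of the 7 genes passed under the scaling used here. A test for any difference among the 6 diets called 0 of the 7 genes, with adjusted p from 0.090 for H2-Ab1 to 0.19 for Ciita (edgeR quasi-likelihood test, Benjamini-Hochberg over 491 genes), whereas 64.8% of all genes tested passed. None of the 7 had an unadjusted p below 0.05, and DESeq2 also called 0. In the same test all 10 macrophage markers and all 9 tested B cell markers passed. Of the other marker lists, 4 of 6 dendritic cell, 6 of 10 T cell, 4 of 6 lymph node, 5 of 6 epithelium and 3 of 3 adipocyte markers passed. The count among the 7 genes depended on scaling: 6 of the 7 passed under TMM, which assumes that most genes do not change, as did 328 of the 491 genes. It was 5 with the B cell marker mean as a covariate, a fit for which the count over all genes is not given here.

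**Figure D1:**
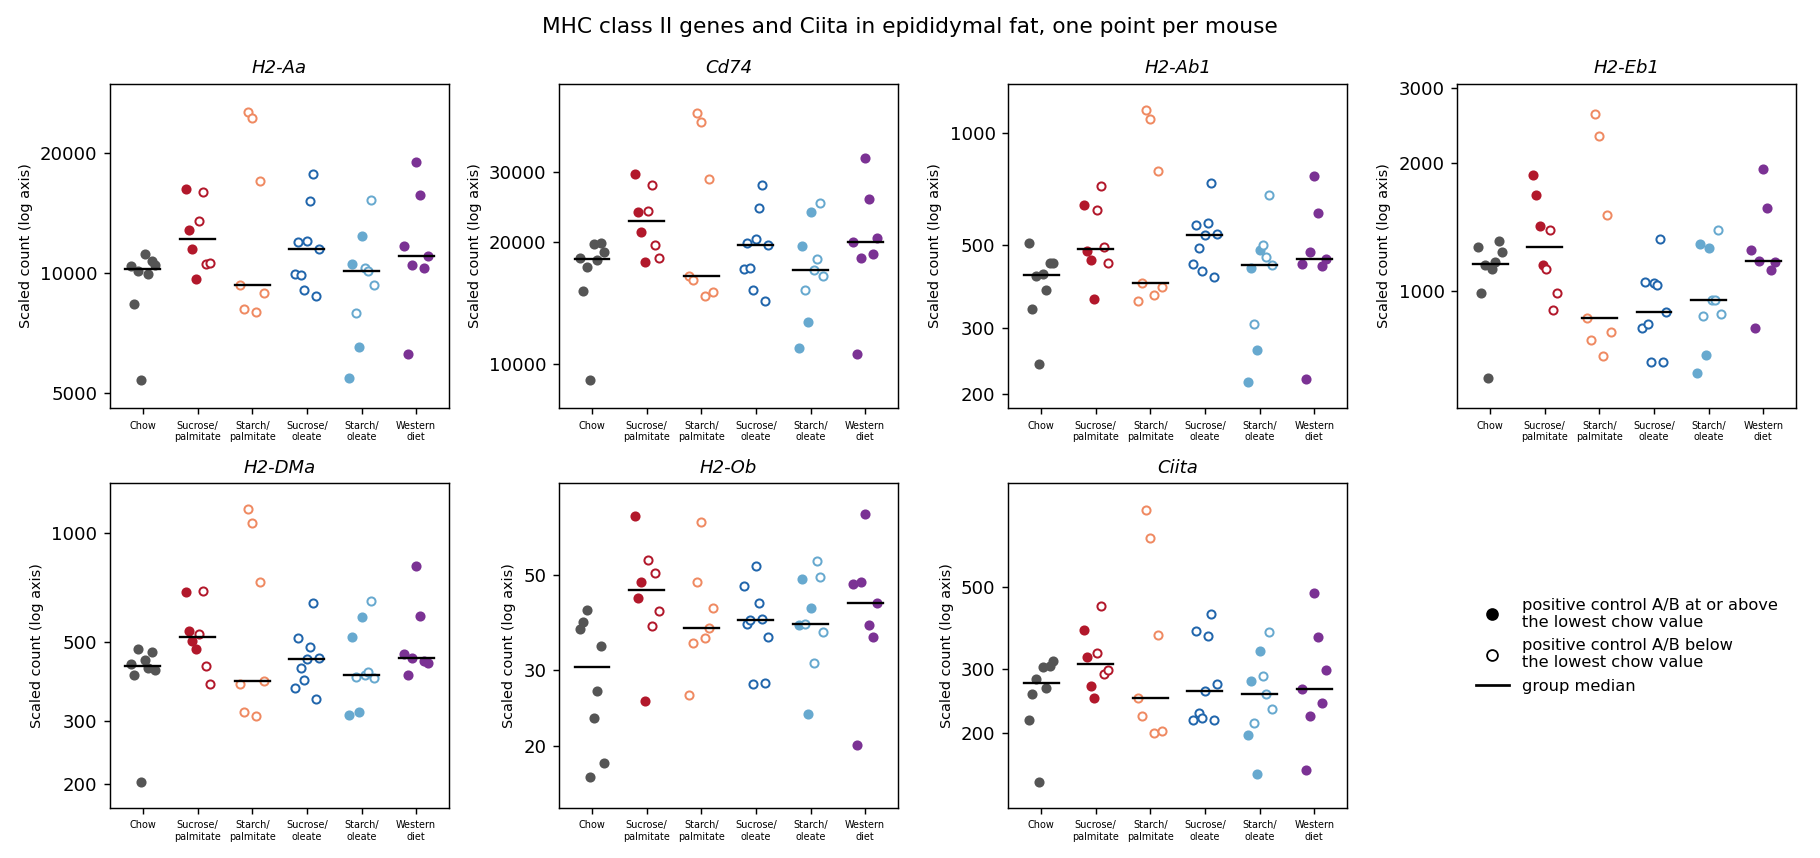
Scaled count of each gene in each mouse (log axes), by diet, with a line at the group median. Filled points are samples whose positive control ratio is at or above the lowest chow value and open points those below it. For all genes but H2-Ob, 3 of 7 starch/palmitate mice stand above all chow mice while the other 4 lie below the chow mean.

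H2-Aa encodes the alpha chain of the I-A molecule and Cd74 the invariant chain that blocks its groove during transport. Chow mice ranged from 5387 to 11152 scaled counts of H2-Aa, with a median of 10239. Sucrose/palmitate mice ranged from 9647 to 16188 (median 12116), and 5 of 8 exceeded the highest chow mouse. Starch/palmitate mice ranged from 7966 to 25232 (median 9303), and 3 of 7 exceeded it. The ranges were 8728 to 17635 (median 11465) with sucrose/oleate, 5454 to 15201 (median 10099) with starch/oleate and 6254 to 18905 (median 11002) with the Western diet, and each overlapped chow. For Cd74 the chow range was 9138 to 19895 (median 18189), sucrose/palmitate 17839 to 29546 (median 22562) and starch/palmitate 14712 to 42015 (median 16555). Sucrose/oleate (14295 to 27739, median 19687), starch/oleate (10911 to 25090, median 17133) and Western diet mice (10560 to 32442, median 20094) again overlapped chow. No diet passed the test against chow for either gene. The nearest was starch/palmitate, with a log2 difference of 0.59 ± 0.23 (SE) for H2-Aa (edgeR adjusted p = 0.053) and 0.53 ± 0.22 for Cd74 (adjusted p = 0.064). Starch/oleate gave 0.03 ± 0.22 for H2-Aa and 0.05 ± 0.20 for Cd74 (adjusted p = 0.93 and 0.85).

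The beta chain genes are H2-Ab1, of the I-A molecule, and H2-Eb1, of I-E. H2-Ab1 ranged from 240 to 507 in chow mice (median 416), 358 to 722 with sucrose/palmitate (median 490), 355 to 1147 with starch/palmitate (median 396), 411 to 733 with sucrose/oleate (median 532), 216 to 682 with starch/oleate (median 443) and 220 to 766 with the Western diet (median 460). Every diet overlapped chow, and the starch/palmitate median lay below the chow median although its mean, 648 ± 356 (SD, n = 7), lay above the chow mean of 399 ± 81.4 (SD, n = 8). H2-Ab1 rose with starch/palmitate by 0.70 ± 0.24 on the log2 scale (edgeR adjusted p = 0.027), which rested on 3 mice described below. With a covariate for the positive control ratio the difference was 0.14 ± 0.32 (adjusted p = 0.83), and with the ratio class as a block 0.35 ± 0.32 (adjusted p = 0.52). All chow mice were in the higher class and all starch/palmitate mice in the lower. The block fit thus takes the class difference from sucrose/palmitate and starch/oleate, the diets with mice of both classes. Both fits assume that the class or ratio acts alike in all diets, which was not tested. H2-Eb1 ranged from 624 to 1314 in chow mice (median 1161), 903 to 1876 with sucrose/palmitate (median 1272), 704 to 2609 with starch/palmitate (median 862), 679 to 1323 with sucrose/oleate (median 891), 642 to 1390 with starch/oleate (median 953) and 820 to 1942 with the Western diet (median 1179). Of the sucrose/oleate mice 8 of 9 lay below the chow mean for H2-Eb1, and 9 of 9 lay above it for H2-Ab1. The differences from chow were -0.26 ± 0.22 for H2-Eb1 (adjusted p = 0.36) and 0.39 ± 0.23 for H2-Ab1 (adjusted p = 0.18), neither past the threshold. TMM scaling gave H2-Eb1 a fall with sucrose/oleate (-0.48, adjusted p = 0.027) and starch/oleate (-0.52, adjusted p = 0.011), where reference gene scaling gave starch/oleate -0.16 ± 0.22 (adjusted p = 0.54).

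The ratio of H2-Eb1 to H2-Ab1 counts, which no scaling alters, showed the split between the beta chains sample by sample. It was 2.51 to 3.08 in chow mice and 1.59 to 1.96 in sucrose/oleate mice, without overlap, and 1.91 to 2.43 in starch/palmitate mice, also without overlap. Within sucrose/palmitate it was 2.93 to 3.48 in the 4 mice of the higher positive control class and 1.81 to 2.20 in the 4 of the lower class. Within starch/oleate the classes gave 2.59 to 2.97 and 1.90 to 2.84. Starch/oleate 3, of the lower class, gave 2.84 at a positive control ratio of 3.154, whereas starch/oleate 6 gave 1.90 at 3.155. Starch/oleate 7, 8 and 9, also of the lower class, gave 1.99 to 2.05. The chain ratio moved with the positive control class inside sucrose/palmitate and, apart from starch/oleate 3, inside starch/oleate. No test was made of it, and H2-Eb1 and H2-Ab1 values across the classes carry this difference. The ratio of Cd74 to H2-Aa stayed between 1.57 and 2.00 in all 48 samples.

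**Figure D2:**
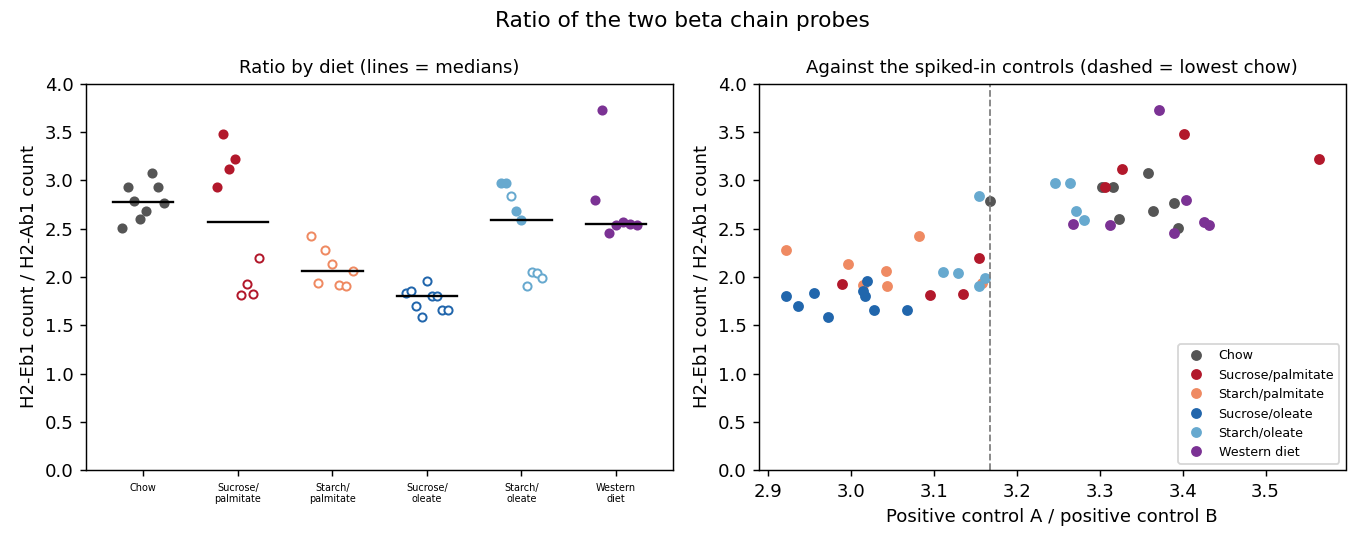
Left, ratio of H2-Eb1 to H2-Ab1 counts in each mouse by diet with medians, filled and open by positive control class. Right, the same ratio against the ratio of positive control A to B, with the lowest chow value dashed. Sucrose/palmitate mice fall into 2 sets, 1.81 to 2.20 and 2.93 to 3.48, on either side of the dashed line.

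Of the peptide loading genes, H2-DMa, which encodes a chain of the peptide exchanger, ranged from 203 to 477 in chow mice (median 427), 382 to 690 with sucrose/palmitate (median 514), 310 to 1168 with starch/palmitate (median 388), 347 to 638 with sucrose/oleate (median 446), 311 to 647 with starch/oleate (median 404) and 404 to 811 with the Western diet (median 449). All overlapped chow. H2-DMa rose with starch/palmitate (0.61 ± 0.22, adjusted p = 0.040), with the same 3 mice high. With a covariate for the positive control ratio the H2-DMa difference was 0.27 ± 0.31 (adjusted p = 0.68), and with the class as a block 0.64 ± 0.31 (adjusted p = 0.18). With the block the difference did not shrink and its SE grew. Neither fit passed, but both assume that the class or ratio acts alike in all diets, so no conclusion is drawn from them. H2-Ob, which encodes the beta chain of the exchanger's inhibitor, ranged from 16.9 to 41.5 in chow mice (median 30.5), 25.5 to 68.4 with sucrose/palmitate (median 46.1), 26.3 to 66.4 with starch/palmitate (median 37.5), 27.8 to 52.4 with sucrose/oleate (median 39.3), 23.7 to 53.8 with starch/oleate (median 38.4) and 20.1 to 69.1 with the Western diet (median 42.96). H2-Ob lay above the highest chow mouse in 5 of 8 sucrose/palmitate and 4 of 7 Western diet mice. It rose with sucrose/palmitate (0.63 ± 0.21, adjusted p = 0.034) and with the Western diet (0.54 ± 0.21, adjusted p = 0.041), and reached 0.44 ± 0.20 with starch/oleate (adjusted p = 0.060).

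Among B cell markers, 8 of 9 rose with sucrose/palmitate (median log2 difference 0.78; 17.1% of all genes passed there) and 7 of 9 with the Western diet (median 1.14; 40.7% of all genes), the diets in which H2-Ob rose. In the diets where H2-Ob did not pass, 9 of 9 rose with starch/oleate (median 1.45; 60.3% of all genes), 3 of 9 with starch/palmitate (median 0.56; 25.3%) and 3 of 9 with sucrose/oleate (median 0.28; 36.7%). With the B cell marker mean as a covariate the H2-Ob difference was 0.19 with sucrose/palmitate (adjusted p = 0.62) and 0.04 with the Western diet (adjusted p = 0.92). In bulk tissue fewer cells of a type and less RNA per cell cannot be told apart, nor can more cells and more RNA per cell. The sucrose/palmitate call for H2-Ob was lost without chow 4, 5, 6 or 8 or sucrose/palmitate 1 or 7 (adjusted p 0.055 to 0.093), and in the higher positive control class alone (0.65, adjusted p = 0.19). The Western diet call was lost without chow 4, 5, 6 or 8 or Western diet 1, 3, 4 or 7 (log2 0.39 without Western diet 4, adjusted p 0.058 to 0.17). The starch/oleate difference passed without chow 1, 2 or 3, starch/oleate 4 or 6 or Western diet 2 (adjusted p 0.028 to 0.046).

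Ciita, the transactivator, ranged from 147 to 314 in chow mice (median 273), 249 to 445 with sucrose/palmitate (median 309), 200 to 814 with starch/palmitate (median 249), 217 to 423 with sucrose/oleate (median 260), 154 to 378 with starch/oleate (median 255) and 158 to 483 with the Western diet (median 264). All diets overlapped chow and none passed the test. The largest difference from chow was 0.59 ± 0.25 with starch/palmitate (adjusted p = 0.070), and starch/oleate gave -0.01 ± 0.23 (adjusted p = 0.97). The ratio of Ciita to H2-Aa counts had medians of 0.0235 with the Western diet to 0.0276 in chow mice, a range narrower than that within chow (0.0210 to 0.0306).

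Set against the rest of the panel, 1 of the 7 genes rose with sucrose/palmitate against chow (H2-Ob), where 17.1% of all genes passed and 14.9% rose. With starch/palmitate 2 of 7 rose (H2-Ab1 and H2-DMa), where 25.3% passed and 20.6% rose. With sucrose/oleate 0 of 7 passed, against 36.7% of all genes, and with starch/oleate 0 of 7, against 60.3%. At an unadjusted p below 0.05 there were 0 and 1 of them in these diets, and DESeq2 called 0 in both. With the Western diet 1 of 7 rose (H2-Ob), where 40.7% passed and 32.8% rose. The median log2 difference of the 7 genes and of all genes was 0.40 and 0.20 with sucrose/palmitate, 0.59 and 0.24 with starch/palmitate, 0.19 and 0.19 with sucrose/oleate, 0.05 and 0.34 with starch/oleate, and 0.29 and 0.25 with the Western diet. These comparisons share the chow mice. TMM scaling lowered every one of the all-gene medians, to between -0.04 and 0.07, and under it 0 of 7 rose in any diet against chow. The Western diet against sucrose/palmitate called 0 of 7, with 6.11% of all genes passing, 0 of the 7 at an unadjusted p below 0.05 and 0 by DESeq2.

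**Figure D3:**
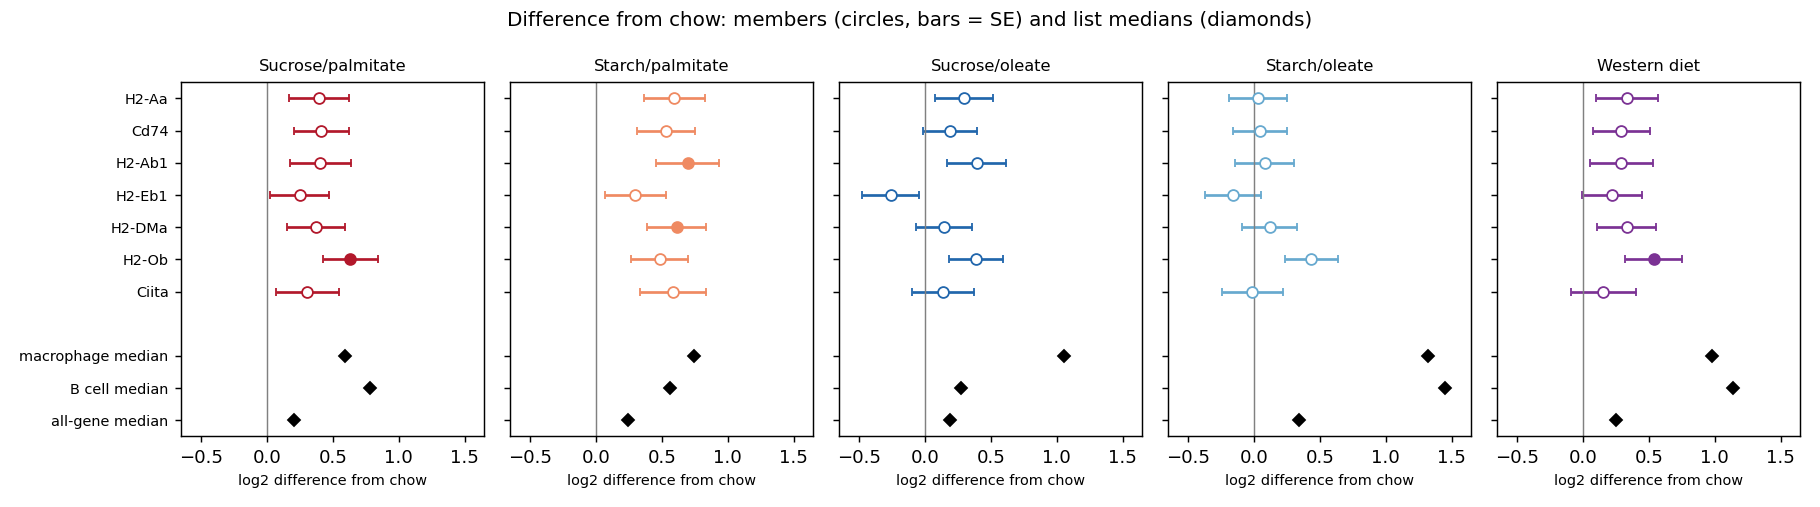
Log2 difference from chow for each gene (circles, bars are SE, filled where the adjusted p is below 0.05) and medians of the macrophage markers, the B cell markers and all genes tested (diamonds), by diet. With starch/oleate the macrophage and B cell medians reach 1.32 and 1.45 while 6 of the 7 genes lie between -0.16 and 0.12.

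The starch/palmitate result rested on 3 mice. Starch/palmitate 3, 4 and 6 held 25232, 24466 and 16970 scaled counts of H2-Aa, and the other 4 mice held 7966 to 9303. Ciita stood at 814, 683 and 372 in those 3 mice and at 200 to 249 in the other 4. The same 3 mice stood above every chow mouse for H2-Aa, H2-Ab1, H2-Eb1, H2-DMa, Cd74 and Ciita, and the other 4 lay below the chow mean for each. The macrophage gene Emr1 did not separate them, with 3601, 5520 and 4144 against 1664 to 3769, nor did the B cell gene Ms4a1, with 47.1, 220 and 82.7 against 28.9 to 83.5. Starch/palmitate 3 and 1 were high in epithelium markers, with mean log2 levels of 8.36 and 6.44 against 3.99 to 5.63 in the other 5. Without the 7 samples high in epithelium markers, H2-Ab1 was at 0.60 (adjusted p = 0.063) and H2-DMa at 0.47 (adjusted p = 0.15). The H2-Ab1 call was lost without chow 4 or starch/palmitate 3, 4 or 6 (log2 0.50 to 0.64, adjusted p 0.057 to 0.14), and the H2-DMa call without chow 2, 4, 6 or 8 or the same 3 mice (0.39 to 0.62, adjusted p 0.051 to 0.21). Conversely H2-Aa, Cd74 and Ciita each passed when starch/palmitate 1, 2, 5 or 7 was left out (adjusted p 0.023 to 0.044).

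Palmitate was compared with oleate over both carbohydrates. Of the 7 genes 1 rose, H2-Eb1, by 0.48 ± 0.15 on the log2 scale (adjusted p = 0.014), where 34.4% of all genes passed and 10.8% rose. The other 6 were higher on palmitate by 0.15 to 0.38 and did not pass, among them Cd74 (0.35 ± 0.15, adjusted p = 0.058), H2-DMa (0.36 ± 0.15, adjusted p = 0.059) and Ciita (0.38 ± 0.17, adjusted p = 0.068). Their median was 0.35 against -0.05 for all genes and -0.47 for the macrophage markers, of which 6 of 10 fell. At an unadjusted p below 0.05 there were 5 of 7. TMM scaling called 6 of 7, at 0.41 to 0.58, and moved the all-gene median to 0.07. The 6 genes were all but H2-Ob. With the B cell marker mean as a covariate 6 also passed, at 0.40 to 0.57. The share of all genes passing under TMM or with this covariate is not given here. The counts of 6 are therefore not set against the panel. H2-Eb1 passed with each of the 48 samples left out in turn, with adjusted p up to 0.049. Within the lower positive control class, the only class with all 4 custom diets, H2-Eb1 differed by 0.34 ± 0.20 (adjusted p = 0.24) and 0 of 7 passed. With the class as a block it was 0.47 (adjusted p = 0.017).

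**Figure D4:**
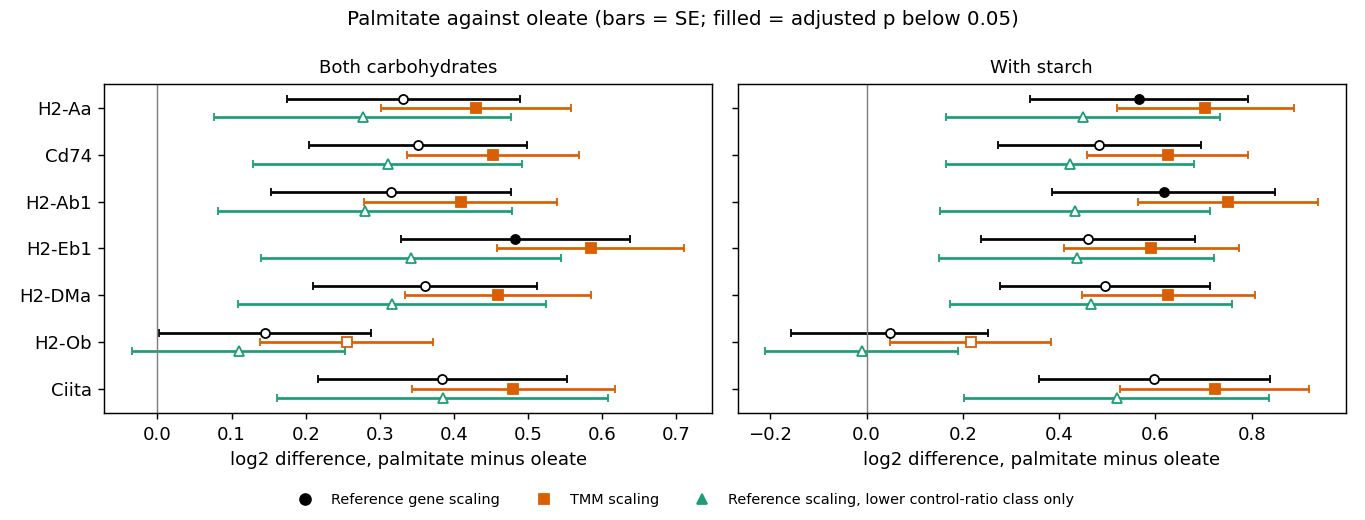
Log2 difference of palmitate minus oleate for each gene (bars are SE, filled where the adjusted p is below 0.05), over both carbohydrates (left) and with starch (right), under reference gene scaling, TMM scaling and reference gene scaling within the lower positive control class. Left, all differences lie above 0, from 0.11 to 0.58. Right, H2-Ob lies at 0.05 under reference gene scaling and -0.01 within the lower class, against 0.22 under TMM scaling.

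With starch, palmitate against oleate called 2 of 7 genes, H2-Ab1 (0.62 ± 0.23, adjusted p = 0.037) and H2-Aa (0.57 ± 0.23, adjusted p = 0.0498), where 32.6% of all genes passed and 8.35% rose. The group medians lay in the opposite order: the H2-Ab1 median was 396 with starch/palmitate and 443 with starch/oleate, and the ranges overlapped throughout. The H2-Ab1 call was lost without starch/palmitate 3, 4 or 6 or starch/oleate 1, 3 or 4 (0.42 to 0.57, adjusted p 0.068 to 0.16), and H2-Aa kept its call in 11 of the 48 runs. Neither passed within the lower positive control class (0.43 and 0.45, adjusted p = 0.28 and 0.27) or with a covariate for the positive control ratio (0.30 and 0.33, adjusted p = 0.38 and 0.34). With sucrose the step called 0 of 7, with 3.67% of all genes passing. H2-Eb1 was the nearest (0.51 ± 0.22, adjusted p = 0.14), the sole gene of the 7 at an unadjusted p below 0.05, and H2-Ab1 gave 0.01 ± 0.22. Within the lower positive control class H2-Eb1 gave 0.25 ± 0.29 with sucrose (adjusted p = 0.78), and with the class as a block 0.39 ± 0.25 (adjusted p = 0.46). With a covariate for the positive control ratio it gave 0.61 ± 0.29 (adjusted p = 0.41). DESeq2 called 0 with sucrose and TMM scaling 1, H2-Eb1, in a fit without the class.

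The choice of carbohydrate moved none of the 7 genes past the threshold. Sucrose against starch over both fats gave -0.11 to 0.05, where 9.98% of all genes passed. The step with palmitate (2.04% of all genes) called 0 of 7, as did the step with oleate (15.1%). The interaction of carbohydrate and fat (5.50%) called 0 of 7, the widest value being -0.60 ± 0.32 for H2-Ab1 (adjusted p = 0.32). In each of these 4 tests none of the 7 had an unadjusted p below 0.05, and DESeq2 and TMM scaling called 0.

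Macrophages carry class II, and their markers are given beside Cd74, which passed in no diet against chow. With starch/oleate 9 of 10 macrophage markers rose and 1 fell (median log2 difference 1.32; 60.3% of all genes passed), and with sucrose/oleate 7 rose and 1 fell (median 1.06; 36.7%). With the Western diet 7 rose and 1 fell (median 0.98; 40.7%), with starch/palmitate 6 rose and 1 fell (median 0.74; 25.3%), and with sucrose/palmitate 3 rose (median 0.59; 17.1%). Emr1, which encodes the macrophage surface protein F4/80, rose with starch/oleate by 1.52 ± 0.26 (adjusted p = 3.5e-06). The ratio of Cd74 to Emr1 counts, which needs no scaling and was chosen after the values were seen, was 6.87 to 12.9 in chow mice (median 10.2). With starch/oleate it was 1.85 to 4.77 (median 3.25), and all 9 mice lay below the lowest chow mouse. With sucrose/oleate it was 3.24 to 8.85 (median 4.24) and 8 of 9 lay below it, and with the Western diet 3.55 to 8.84 (median 4.65) and 6 of 7 lay below it. The palmitate diets overlapped chow more, at 4.28 to 11.7 with starch (median 6.93) and 5.54 to 11.8 with sucrose (median 8.14).

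The mean ratio was 2.98-fold lower than in chow with starch/oleate (exact two-sided permutation test, adjusted p = 0.00041 over 5 diets, p = 8.2e-05, the smallest the test can give). It was 2.04-fold lower with sucrose/oleate (exact permutation test, adjusted p = 0.0010) and 1.92-fold lower with the Western diet (exact permutation test, adjusted p = 0.0026). It was 1.39-fold lower with starch/palmitate and 1.21-fold lower with sucrose/palmitate, neither past the threshold (exact permutation test, adjusted p = 0.052 and 0.15). With the mean of the 10 macrophage markers in place of Emr1, the ratio was 2.17-fold lower with starch/oleate, 1.53-fold with sucrose/oleate and 1.35-fold with the Western diet. All 3 passed the threshold (exact permutation test, adjusted p = 0.00041, 0.0080 and 0.011). Within the higher positive control class, the Cd74 to Emr1 ratio was 3.05-fold lower with starch/oleate (exact permutation test, adjusted p = 0.0061). Without the samples high in epithelium markers, the Cd74 to Emr1 ratio also passed with starch/palmitate (1.49-fold lower, exact permutation test, adjusted p = 0.021). These tests share the chow mice. The ratio was chosen after the values were seen, so the p-values describe a difference already seen and are not separate support for it. Under reference gene scaling Cd74 itself differed from chow by 0.05 log2 with starch/oleate, 0.19 with sucrose/oleate and 0.29 with the Western diet. None of these passed. With starch/oleate the lower ratio under this scaling mostly restates the Emr1 rise given above.

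**Figure D5:**
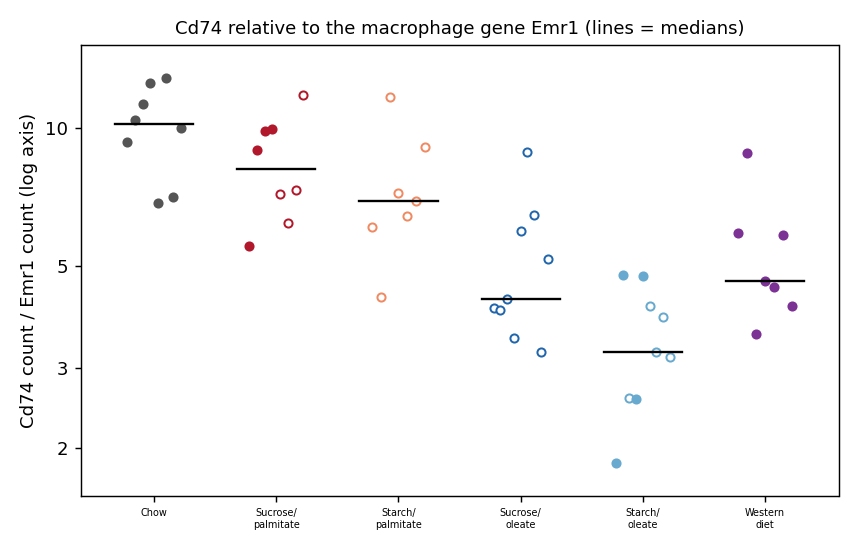
Ratio of Cd74 to Emr1 counts in each mouse by diet (log axis), with a line at the median; filled and open points are the positive control classes. All 9 starch/oleate mice, 1.85 to 4.77, lie below the lowest chow mouse at 6.87.

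Other genes of the pathway on the panel are described from lists, here and in the next paragraph under reference gene scaling only. Under it the all-gene median was 0.34 with starch/oleate and 0.25 with the Western diet, against -0.002 and 0.04 under TMM. Of 3 loading and processing genes, H2-DMb2, the partner chain of H2-DMa, rose with starch/oleate (0.86 ± 0.25, adjusted p = 0.0035), the Western diet (0.92 ± 0.27, adjusted p = 0.0054) and sucrose/palmitate (0.76 ± 0.26, adjusted p = 0.040). Ctss, the protease that trims the invariant chain, rose with starch/oleate (1.48 ± 0.29, adjusted p = 3.6e-05) and sucrose/oleate (0.92 ± 0.29, adjusted p = 0.010), and fell on palmitate against oleate (-0.66 ± 0.21, adjusted p = 0.012). H2-Ea-ps passed in none of the 5 diets against chow (-0.01 to 0.49). Cd4, the coreceptor that binds class II, rose with starch/oleate by 1.23 ± 0.24 (adjusted p = 3.2e-05). Of the costimulatory genes, Cd80 rose with starch/oleate (0.69 ± 0.19, adjusted p = 0.0017), Cd86 with the Western diet (0.49 ± 0.16, adjusted p = 0.014) and starch/palmitate (0.43 ± 0.16, adjusted p = 0.047), and Cd40 with the Western diet (0.44 ± 0.18, adjusted p = 0.046).

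Upstream of Ciita, 7 genes of the interferon gamma route were on the panel. Ifng itself lay at 2.27 to 19.6 scaled counts in all samples, close to the negative controls, and passed in no diet against chow. Irf1 rose with starch/palmitate (0.57 ± 0.18, adjusted p = 0.017), the 1 gene of the 7 to do so there, where 20.6% of all genes rose. All mice of this diet were in the lower positive control class and all chow mice in the higher. Across all samples Irf1 had a Pearson r of 0.69 with Ciita, and 0.52 without the 2 samples farthest from the Ciita median. With starch/oleate the receptor chain gene Ifngr2 rose (0.44 ± 0.09, adjusted p = 3.9e-05) and Ifngr1 fell (-0.36 ± 0.09, adjusted p = 0.00088). The Western diet moved the same 2 genes in the same directions (0.44 ± 0.09 and -0.36 ± 0.10, adjusted p = 0.00032 and 0.0032). The Ifngr2 rises of 0.44 stand beside all-gene medians of 0.34 with starch/oleate and 0.25 with the Western diet under this scaling. Of 4 genes known to restrain class II, 3 rose with starch/oleate, where 237 of all 491 genes rose: Tgfb1 (1.01 ± 0.16, adjusted p = 8.8e-07), Prdm1 (0.74 ± 0.15, adjusted p = 6.0e-05) and Socs1 (0.54 ± 0.21, adjusted p = 0.026). Tgfb1 fell on palmitate against oleate (-0.51 ± 0.11, adjusted p = 0.00063).

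Across the 48 mice the 7 genes varied together, apart from H2-Ob. Spearman rho between pairs of the other 6 ranged from 0.69 to 0.98, and H2-Ob reached 0.46 to 0.59 with them. The samples share the reference genes used for scaling, so these values are a description. Among genes outside the 7, those most like the mean of H2-Aa, H2-Ab1, H2-Eb1 and Cd74 were H2-Ea-ps (rho 0.97, Pearson r 0.99), the class I gene H2-K1 (0.78, r 0.81), the lymphocyte adhesion receptor Cd226 (0.72, r 0.78), the peptide transporter Tap1 (0.70, r 0.69) and the DNA sensor Tlr9 (0.65, r 0.69). Without the 2 samples farthest from the median, r was 0.98, 0.78, 0.71, 0.61 and 0.63. The median rho over all other genes was 0.16 and the 95th percentile 0.46. Those most like Ciita were H2-Ea-ps (0.94), Cd226 (0.74), H2-K1 (0.74), Tap1 (0.69) and the T cell adhesion gene Cd2 (0.63). Emr1 gave a rho of 0.28 with the class II mean and 0.54 on deviations from the diet means, and Ms4a1 gave 0.22 and 0.23.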

How the data were processed

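The authors deposited counts: per the values of the table, whole numbers of barcodes per probe for 547 genes, 14 reference genes, 8 negative and 6 positive controls in 48 samples, not scaled between samples. The tool that made them is not given in the sources used here. Columns were matched to samples through the labels' descriptions, and groups come from the labels. No 2 samples were copies (lowest chi-square per degree of freedom 4.61 over 1128 pairs). Replicate numbers did not pair samples: same-numbered samples of different diets had a mean correlation of -0.016 over 112 pairs, the others 0.0067 over 846.

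Each sample was divided by its geometric mean over the reference genes, relative to the other samples. The 491 genes averaging 10 counts or more were fitted over all samples with R 4.3.3 and edgeR 4.0.16 (glmQLFit and glmQLFTest), each diet having its own mean. P-values are two-sided, Benjamini-Hochberg adjusted over all genes tested, with a threshold of 0.05. A standard error is the size of the log2 difference divided by the root of F. The step was tested on simulated data. The Cd74 to Emr1 ratio was tested on log2 values by exact permutation (scipy 1.17.1).

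The 7 genes, the gene lists and the tests were chosen with earlier results of these data known. Named genes are the 7, up to 3 genes per pathway list that passed, and the 5 genes most alike in pattern over all samples, with log2 of the scaled count plus 1. Gene names follow the table; the 7 matched RefSeq by accession. Alternatives were TMM, no filter, a stricter filter at 30 counts, a replicate block, a fit of only the groups compared, DESeq2 1.42.0, subtraction of the negative control mean, the positive control ratio or the B cell marker mean as a covariate, leaving out 7 samples high in epithelium markers, and leaving out each sample. The positive control class, cut at the lowest chow ratio of 3.17 (23 samples at or above, 25 below), and the Cd74 to Emr1 ratio with its variants were added after seeing the data. The number of samples and, for H2-Ob, the negative control level limit the precision. A gene was fitted and counted but is not reported here.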

Additional observations from a re-analysis of the deposited data

Results flagged for a closer look

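Chow mouse 4 stood apart from the other 7 chow mice for 4 of the 7 genes. It was lowest for H2-Aa at 5387.4 scaled counts, with the nearest chow mouse at 8358.6, for Cd74 at 9137.9 (nearest 15156.6), for H2-Eb1 at 623.7 (nearest 989.6) and for H2-DMa at 202.7 (nearest 402.8). In each case the gap was more than the share of the group's range that Dixon's test allows at the 95% level. Chance gives such a gap in about 5% of groups, and 42 groups were examined, so 4 in 1 mouse count as 1 pattern because these genes vary together. The same mouse was lowest of the chow group for H2-Ab1, H2-Ob and Ciita. It also had the lowest Emr1 count of the chow group, 730, and its Cd74 to Emr1 ratio of 12.5 lay within the chow range. Its summed gene count of 602666 was near the median of all samples. Whether the low values come from the composition of the fat pad was not tested. Without this mouse the difference from chow with sucrose/palmitate was 0.31 for H2-Aa in place of 0.40 and 0.32 for Cd74 in place of 0.41. The H2-Ob calls for sucrose/palmitate and the Western diet and both starch/palmitate calls were then lost.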

How the results depend on the processing

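No difference of the 7 genes that passed the test changed sign under any alternative, and a count of genes called is the quantity given next. TMM scaling moved 9 of 14 counts: to 6 for any difference, 0 for sucrose/palmitate, starch/palmitate and the Western diet against chow, 1 for sucrose/oleate and 1 for starch/oleate, 6 for palmitate against oleate, 6 with starch and 1 with sucrose. The B cell marker mean as a covariate gave 5, 0 for those 3 diets, 6 and 6 with starch. Only the groups compared gave 0 for those 3 diets, 1 for sucrose/oleate and 0 for palmitate against oleate with starch. The positive control ratio as a covariate gave 0 for sucrose/palmitate, 0 for starch/palmitate, 4 for palmitate against oleate and 0 with starch, and the ratio class as a block gave 0, 0 and, with starch, 0. For starch/palmitate against chow these fits assume that the class or ratio acts alike in all diets, which was not tested. Within the higher class both diets that passed gave 0 (sucrose/palmitate and Western), and within the lower class both fat comparisons gave 0. All chow and Western diet mice were already in the higher class. The H2-Ob difference with the Western diet stayed at 0.54 there, and its SE grew from 0.21 to 0.25 (edgeR adjusted p = 0.0999). With the class as a block that call was kept (edgeR adjusted p = 0.044). Without the samples high in epithelium markers the counts were 1 for any difference, 0 for starch/palmitate and 0 for palmitate against oleate with starch. Subtracting the negative control gave 0 for sucrose/palmitate and 1 for palmitate against oleate with starch, no filter gave 1 there, and DESeq2 gave 2 for palmitate against oleate. Counts over all genes under these alternatives and the replicate block are not given here, except for TMM in the test for any difference.

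The numbers do not pair the mice. With the replicate block the counts were 0 for starch/palmitate, 0 for the Western diet (H2-Ob adjusted p = 0.068), 0 for palmitate against oleate (H2-Eb1 0.45, adjusted p = 0.053) and 0 with starch, and no other count moved.

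Leaving out 1 sample at a time, counts ran from 0 to 3 for any difference (3 without starch/palmitate 2 or 5), 0 to 1 for sucrose/palmitate, 0 to 6 for starch/palmitate (6 without its mouse 1), 0 to 0 for sucrose/oleate, 0 to 1 for starch/oleate, 0 to 1 for the Western diet, 1 to 4 for palmitate against oleate (4 without starch/palmitate 1, 2 or 5, among others) and 0 to 5 with starch. Calls over all genes tested moved as well: 301 to 334 for any difference, 23 to 112 for sucrose/palmitate and 84 to 160 for starch/palmitate. They ran from 156 to 195 for sucrose/oleate, 276 to 306 for starch/oleate and 160 to 225 for the Western diet. Palmitate against oleate gave 149 to 196, and 120 to 192 with starch. For palmitate against oleate over both carbohydrates, Cd74 passed in 11, H2-DMa in 9 and Ciita in 6 of 48 runs. The causes were not tested.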
